A study of Homo sapiens with 20 samples.

Results

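RUNX1 binding was examined at 8 genomic loci that give rise to microRNAs of blood cells: MIR223, MIR142, MIR155HG, MIR17HG, MIR22HG, MIR181A1HG, MIR146A and the region of VMP1 and MIR21, in which MIR21 lies at the end of its protein-coding host VMP1. Every RUNX1 peak within 50 kb of the RefSeq span of 1 of these 9 genes was taken, whatever its response. This gave 30 of the 26642 merged peaks: 9 at VMP1 and MIR21, 8 at MIR142, 4 at MIR223, 3 at MIR22HG, 2 each at MIR155HG, MIR17HG and MIR181A1HG, and 0 at MIR146A. THP-1 cells, a human cell line grown from an acute monocytic leukemia, expressed under doxycycline either an shRNA that lowers PU.1 (knockdown) or a control shRNA. RUNX1 chromatin immunoprecipitation followed by sequencing (ChIP-seq) gave 6 control and 6 knockdown libraries in 2 batches, with 3 control and 2 knockdown libraries in batch 1 and 3 control and 4 knockdown libraries in batch 2. All cells derived from THP-1 and both groups received doxycycline. In the study's PU.1 Western blot, control and knockdown were separately named THP-1 derivatives, each with its own shRNA. Effects of the derivative or of the shRNA sequence cannot be told apart from those of PU.1. PU.1 levels and microRNA levels are not measured by this assay, and the libraries of a group were, per the study, cell line replicates with their own immunoprecipitation and library preparation. Separate cultures are not stated, so p-values measure the spread between these libraries, which may be technical.

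MicroRNAs are cut from longer primary transcripts as hairpins, and the mature strand guides Argonaute proteins to messenger RNAs that pair with its seed near the 5′ end. RUNX1 is the DNA-binding subunit of core binding factor, and PU.1 is an ETS family factor that directs monocyte and B cell development. The loci differ in their known roles in blood. miR-223 is a marker of the myeloid lineage, miR-142 is found across hematopoietic cells, miR-155 belongs to activated lymphoid and myeloid cells, the miR-17 to miR-92a cluster drives proliferation, miR-181a acts in lymphoid development, miR-146a dampens NF-κB signaling, and miR-21 is raised in many tumors. VMP1 is a membrane protein needed for autophagosome formation.

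The mature microRNAs of the loci at which RUNX1 binding changed are shown first, since they are the products of the genes by which the peaks were chosen. Peaks were assigned by distance alone, and some lie nearer to other genes. They were copied from RefSeq (GRCh38.p14), 5′ to 3′, with the seed (bases 2 to 8) in capitals.
hsa-miR-223-3p: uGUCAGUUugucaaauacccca
hsa-miR-142-3p: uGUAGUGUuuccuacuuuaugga
hsa-miR-142-5p: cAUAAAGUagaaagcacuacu
hsa-miR-155-5p: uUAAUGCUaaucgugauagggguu
hsa-miR-17-5p: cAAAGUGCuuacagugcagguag
hsa-miR-20a-5p: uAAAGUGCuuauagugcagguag
hsa-miR-18a-5p: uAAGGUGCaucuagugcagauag
hsa-miR-19a-3p: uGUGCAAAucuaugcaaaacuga
hsa-miR-19b-3p: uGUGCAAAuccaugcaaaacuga
hsa-miR-92a-3p: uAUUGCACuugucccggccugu
hsa-miR-181a-5p: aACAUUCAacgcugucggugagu
hsa-miR-181b-5p: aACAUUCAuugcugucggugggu
hsa-miR-21-5p: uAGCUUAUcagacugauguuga
Within the MIR17HG cluster, miR-17-5p and miR-20a-5p carry the same seed, as do miR-19a-3p and miR-19b-3p. miR-181a-5p and miR-181b-5p of MIR181A1HG also share theirs. The other strands shown have seeds of their own within this set.

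Libraries held between 630247 and 1199004 reads in peaks in control and between 938745 and 1719840 in knockdown, a ratio of 1.49 within batch (two-sided exact permutation test, p = 0.0171, smallest possible 0.00286). Size factors remove this difference from the normalised counts. They would also remove a change in binding shared by most peaks, so gains and losses are relative to the other peaks. Between 0.129% and 0.166% of the reads in peaks lay in the 30 peaks. Their median was 25.5 to 43 reads in a control library and 28 to 57.5 in a knockdown library, so the values of single peaks carry sizeable counting error. The 30 peaks had a median width of 1021.5 bp (576 to 4963 bp, against 889 bp over all peaks), and 22 of them lay upstream of the hairpin.

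To determine how lowering PU.1 changed RUNX1 binding at these loci, each peak was compared between knockdown and control with DESeq2, with batch as covariate and Benjamini-Hochberg adjustment over all peaks, and was called at an adjusted p under 0.05 and a fold change over 1.1. Of the 30 peaks, 9 (30%) were lost and 3 (10%) were gained, against 20.7% lost and 21.3% gained over all peaks. The largest losses were at single peaks in the windows of MIR223 (4.95-fold), VMP1 (3.68-fold), MIR142 (2.35-fold) and MIR181A1HG (2.16-fold), and the largest gain was at another peak within VMP1 (2.77-fold). Of these, the MIR142 peak lies 602 bp from an end of MPO, and the MIR181A1HG peak is nearer to PTPRC than to the host. The median log2 fold change was -0.11 (-0.02 over all peaks). For the 18 peaks without a call the 95% interval of the log2 fold change reached 0.18 to 0.57 to either side of the estimate. Changes of that size or smaller, and some larger ones, could be missed, because calls rest on the adjusted p. The uncalled peak 56.0 kb before MIR21, for example, had a log2 fold change of 0.59 with an interval of 0.07 to 1.12 (DESeq2 adjusted p 0.0602). Each locus with more than 1 peak and a call, other than MIR17HG, held called peaks beside peaks that were not called or were called in the other direction.

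**Figure D1:**
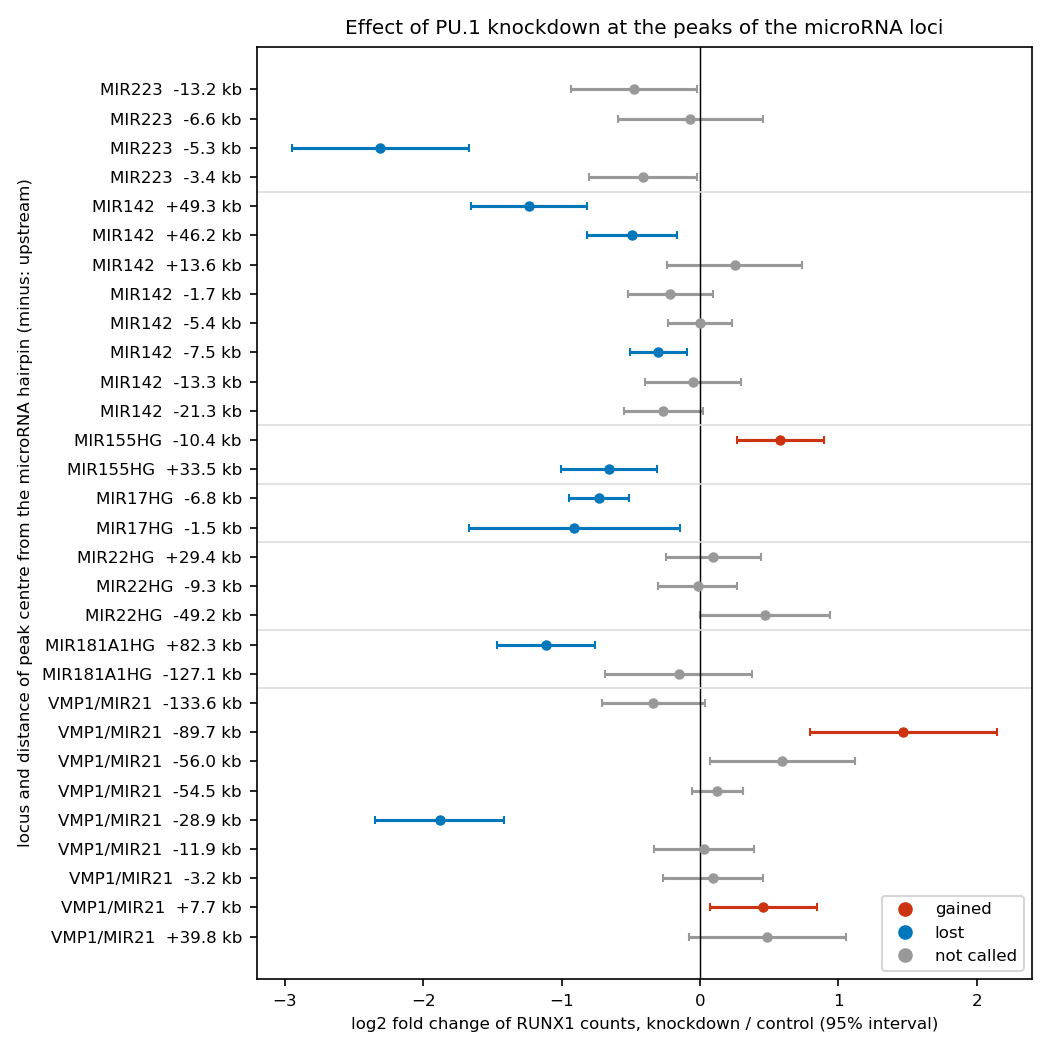
Log2 fold change of RUNX1 counts between knockdown and control (horizontal axis, point and 95% interval, 6 libraries a group) for the 30 peaks, ordered by locus and labelled with the distance in kb from the peak centre to the hairpin, where minus means upstream. Of the intervals, 9 blue ones belong to lost and 3 red ones to gained peaks, from -2.31 at MIR223 to 1.47 within VMP1.

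At MIR223, 1 of 4 peaks was lost and the other 3 were not called. All 4 lay upstream of the hairpin, and the lost peak (chrX:66013195-66014091) was centred 5.28 kb before it, outside any gene of the RefSeq table. In control libraries its normalised count was 18.2 at the lowest, 26.5 at the median and 47.2 at the highest. In knockdown libraries it was 3.56, 5.18 and 9.13. Every knockdown library was below every control library, and the mean was reduced from 28.9 ± 10.2 to 5.57 ± 2.07 (SD over the 6 libraries of a group, here and below). The log2 fold change was -2.31 ± 0.33 (SE, here and below), with an adjusted p of 4.53e-11 by DESeq2, the test behind every adjusted p at a single peak. The knockdown counts rest on few reads, 3 to 10 per library. The loss was present in batch 1 (-2.10, adjusted p 0.00566) and in batch 2 (-2.45, adjusted p 2.7e-06).

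No neighbor of this peak was called. The nearest peak to the hairpin (chrX:66015079-66015977), 2893 bp away and overlapping the noncoding gene MIR223HG, had a control range of 29.9 to 50.3 with a median of 32.7 and a knockdown range of 24.2 to 28.3 with a median of 26.3. The groups did not overlap, yet the peak was not called (change of -0.41 ± 0.20 on the log2 scale, adjusted p 0.0814). The peak 6.64 kb upstream had means of 19.3 ± 6.37 and 18.4 ± 3.41 (-0.07, adjusted p 0.864), and the most distant one, 13.2 kb upstream, 28.4 ± 6.60 and 20.9 ± 4.70 (-0.48, adjusted p 0.0858). Within each library, the lost peak took 19.4% to 35.3% of the reads of the 4 MIR223 peaks in control and 4.55% to 11.5% in knockdown, a share that does not depend on the scaling between libraries.

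MIR142 had 8 peaks, of which 3 were lost and 0 gained. Their positions fell into a group of 5 up to 21.3 kb upstream of the hairpin, 1 peak 13.6 kb downstream within TSPOAP1, and a pair 46.2 and 49.3 kb downstream near MPO, which encodes the neutrophil granule enzyme myeloperoxidase. The strongest response was in that pair, at chr17:58281537-58282502, 602 bp from an end of MPO. Control libraries lay between 37.5 and 59.6 (median 43.8) and knockdown libraries between 7.13 and 22.3 (median 21.0), without overlap. The mean fell from 45.3 ± 7.98 to 18.2 ± 5.90 (-1.23 ± 0.21 on the log2 scale, adjusted p 8.94e-08), and the loss was called in batch 1 (-1.21, adjusted p 0.0188) and batch 2 (-1.25, adjusted p 0.00103). Its share of the reads of the MIR142 peaks was 6.15% to 9.97% in control and 1.44% to 4.92% in knockdown. The other peak of the pair (chr17:58284319-58285779) fell less, from 66.5 ± 14.0 to 47.0 ± 8.09 (-0.49 ± 0.17, adjusted p 0.00924). Its ranges overlapped, at 49.5 to 83.2 and 39.1 to 59.4, and the call was lost without control replicate 4 or 5.

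Of the 5 peaks upstream of the MIR142 hairpin, 1 was called. The nearest peak (chr17:58332158-58333822), 840 bp away, overlaps MIR142HG, the noncoding host transcript, and its promoter. Its control range was 58.6 to 87.1 (median 73.1) and its knockdown range 41.4 to 83.1 (median 61.6), and it was not called (-0.22 ± 0.16, adjusted p 0.274). The next peak, 5.36 kb upstream, had almost equal means of 98.2 ± 8.42 and 97.1 ± 7.56, with a 95% interval of the log2 fold change from -0.23 to 0.23. The largest MIR142 peak (chr17:58337730-58339733), 7.46 kb upstream within TSPOAP1-AS1, fell from 144 ± 19.9 to 114 ± 4.32 (-0.30 ± 0.11, adjusted p 0.0134), with ranges of 113 to 169 and 108 to 120 that overlapped through the lowest control library. This is the smallest change called at any of the loci. It was called in neither batch alone, nor without control replicate 5, knockdown replicate 1 or knockdown replicate 2. The median log2 fold change of all peaks in the surrounding 10 Mb was -0.11, and relative to it this peak and the weaker one near MPO were not called. The remaining peaks, at SUPT4H1 and RNF43 and within TSPOAP1, had log2 fold changes from -0.26 to 0.25 and were not called.

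The promoter window of MIR142HG overlaps that nearest peak, and its 250 bases before the start site (RefSeq, GRCh38.p14, minus strand, chr17:58332521-58332770) are shown for this reason.
MIR142HG: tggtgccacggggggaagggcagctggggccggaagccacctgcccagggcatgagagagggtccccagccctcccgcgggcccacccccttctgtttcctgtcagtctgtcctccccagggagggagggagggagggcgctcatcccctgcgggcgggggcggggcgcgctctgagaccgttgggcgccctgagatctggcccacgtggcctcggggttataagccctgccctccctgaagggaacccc
The RUNX core TGTGGT, the ETS-type PU.1 core GAGGAAGT and the C/EBP core TTGCGCAA were searched on both strands, and the window of 300 bases from 250 before to 50 after the start holds no match to any of them. Of 35116 such windows in the RefSeq table, 13.1% hold the RUNX core, 2.59% the PU.1 core and 0.151% the C/EBP core. The other windows searched, of MIR155HG, MIR17HG, MIR22HG, MIR181A1HG, VMP1 and MIR3142HG (the host of MIR146A), hold none of these cores either. Only the windows of MIR142HG and VMP1 are overlapped by a RUNX1 peak.

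At MIR17HG, the host of the miR-17 to miR-92a cluster, both peaks were lost. The upstream peak (chr13:91341394-91346356) is the broadest of all 30 at 4963 bp and ends 1331 bp before the gene. Its control libraries lay at 170 to 345 (median 229) and its knockdown libraries at 122 to 205 (median 147). The pooled ranges overlap, but within each batch every knockdown library was below every control library. The mean fell from 248 ± 75.3 to 156 ± 31.4 (-0.73 ± 0.11, adjusted p 1e-09). The change was called in batch 2 (-0.85, adjusted p 4.53e-08) and had an adjusted p of 0.0791 in batch 1 (-0.52).

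The other MIR17HG peak (chr13:91348242-91349983) lies within the gene, 1.53 kb upstream of the first hairpin of the cluster. Its control libraries lay at 26.3 to 107 with a median of 34.0, and its knockdown libraries at 11.5 to 31.6 with a median of 23.1. The control mean of 44.7 ± 30.8 owes its width to control replicate 1, and the groups overlap. The peak was called with a log2 fold change of -0.91 ± 0.39 and an adjusted p of 0.0471. Without control replicate 1 the change was -0.56 with an adjusted p of 0.0599, and the call was also lost without any 1 of 8 other libraries. It is uncertain.

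Since both MIR17HG peaks flank the start of the gene, 506 bp from its promoter window at the closest, the 250 bases before the start are shown (RefSeq, GRCh38.p14, plus strand, chr13:91347437-91347686). Capitals mark the only match to TGCGGT, a variant of the RUNX core, at position -108 from the start.
MIR17HG: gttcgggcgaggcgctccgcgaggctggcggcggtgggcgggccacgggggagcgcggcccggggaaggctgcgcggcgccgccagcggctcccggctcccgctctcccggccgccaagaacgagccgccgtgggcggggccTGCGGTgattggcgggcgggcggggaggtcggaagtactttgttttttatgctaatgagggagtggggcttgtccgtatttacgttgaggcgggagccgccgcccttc
Of all windows, 19.6% hold TGTGGT or TGCGGT. No RUNX1 peak overlaps this window.

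**Figure D2:**
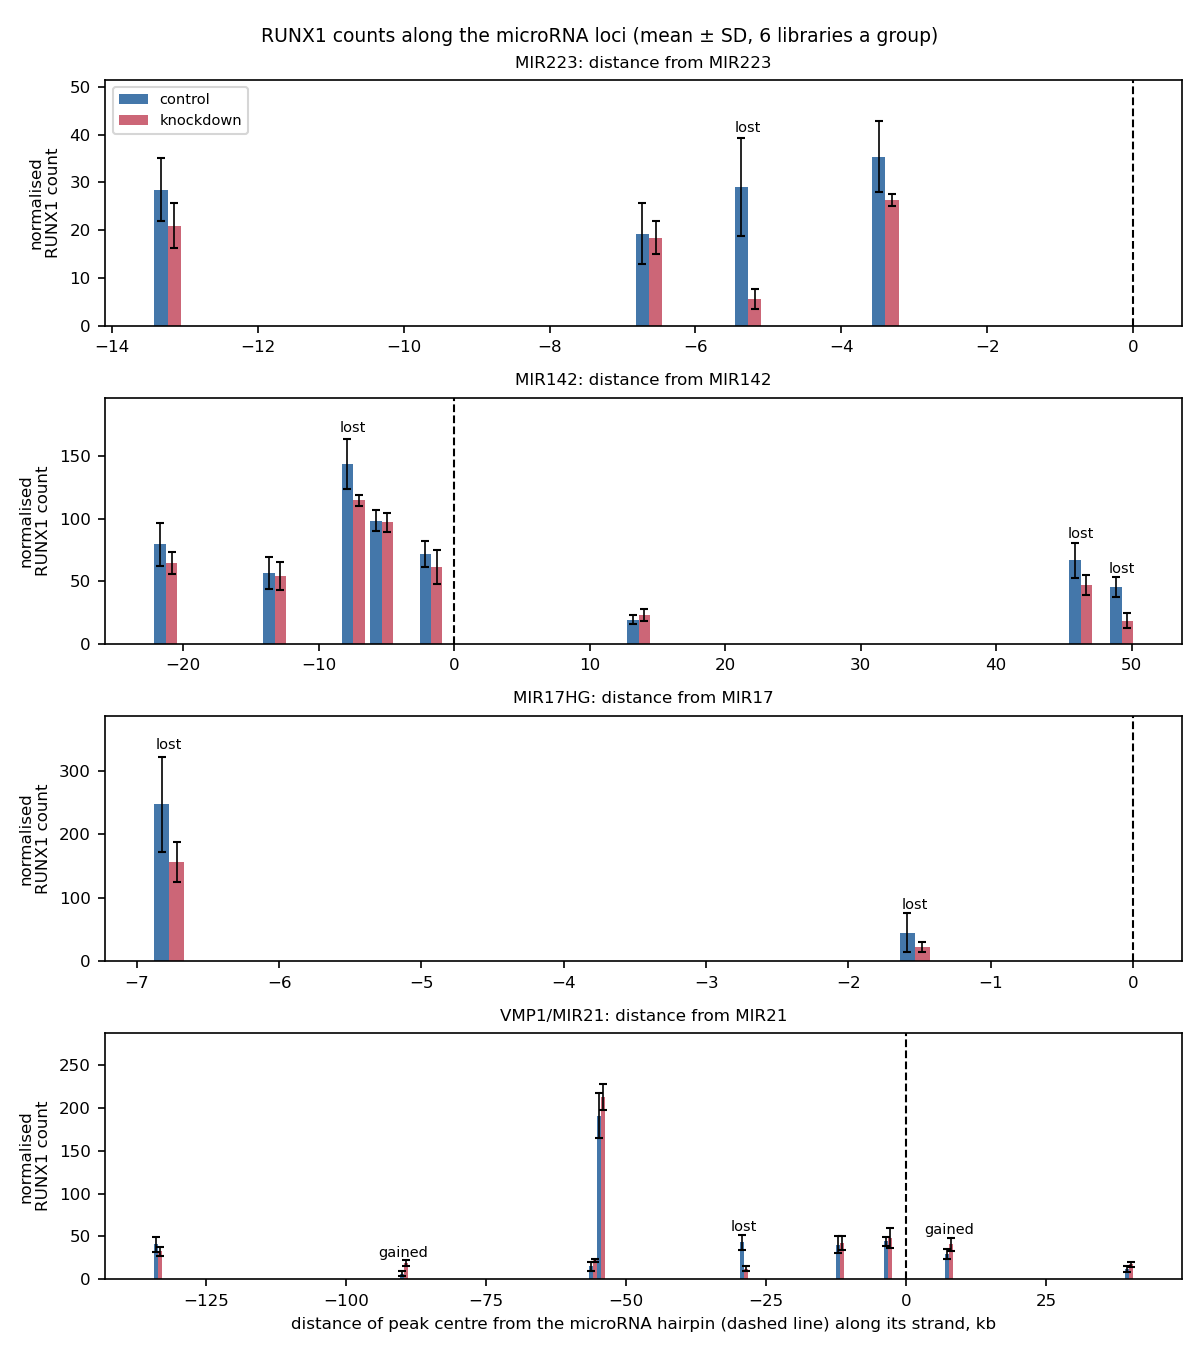
Mean normalised RUNX1 count (vertical axis, bars with SD, 6 libraries a group) of control and knockdown libraries at each peak of MIR223, MIR142, MIR17HG and VMP1/MIR21 by the distance in kb of the peak centre from the hairpin along its strand (horizontal axis, dashed line at the hairpin). The bars of the called peaks are marked, and at MIR142 and VMP1/MIR21 they stand beside peaks whose control and knockdown bars are of similar height. At MIR223 this holds for the peak at -6.6 kb, and the uncalled peaks at -3.4 and -13.2 kb have lower bars in knockdown.

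At MIR155HG, the host of the inflammatory miR-155, both peaks were called, in opposite directions. The peak within the gene (chr21:25562998-25564147), 804 bp beyond its promoter window, was gained. Its control range was 38.2 to 61.1 (median 47.1) and its knockdown range 56.6 to 84.8 (median 72.6), so the groups overlap slightly. The mean rose from 48.1 ± 9.53 to 72.8 ± 11.1 (0.58 ± 0.16, adjusted p 0.00112). In batch 2 all 4 knockdown libraries were above the controls (0.81, adjusted p 0.00158), whereas in batch 1 the change was 0.29 with an adjusted p of 0.640.

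The other peak of this locus (chr21:25607015-25607962) lies within MRPL39, which encodes a mitochondrial ribosomal protein, 33.5 kb downstream of the hairpin. It fell from 59.95 ± 9.49 to 37.5 ± 9.09 (-0.66 ± 0.18, adjusted p 0.000998). Control libraries ranged from 43.8 to 72.8 (median 60.03) and knockdown libraries from 23.8 to 51.1 (median 37.0). As for its neighbor, the call held in batch 2 (-0.91, adjusted p 0.00173) and not in batch 1 (-0.32, adjusted p 0.601). No difference in effect between the batches was detected at either peak by the interaction test (unadjusted p 0.107 and 0.119).

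At MIR181A1HG, the host of miR-181a and miR-181b, 1 of 2 peaks was lost. It lies 30793 bp from the span of the host and is nearer, at 18940 bp, to an end of PTPRC, which encodes the leukocyte phosphatase CD45 (chr1:198776416-198777210). Its control libraries lay at 41.5 to 68.5 (median 56.7) and its knockdown libraries at 23.0 to 32.1 (median 25.5), without overlap. The mean fell from 55.5 ± 11.0 to 26.8 ± 3.96 (-1.11 ± 0.18, adjusted p 1.66e-08). The estimates of the batches were -1.11 and -1.10 and both were called. The distal peak on the other side of the gene, 127.1 kb from the hairpin, had means of 19.2 ± 6.30 and 18.8 ± 6.63 and was not called (-0.15, adjusted p 0.684).

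None of the 3 peaks at MIR22HG was called. The peak nearest the gene (chr17:1722821-1723596, within WDR81), 6611 bp away, ranged from 50.3 to 74.8 in control (median 63.5) and from 54.2 to 73.6 in knockdown (median 65.2), with a log2 fold change of -0.02 ± 0.15 and an adjusted p of 0.941. The peak at PRPF8, a core splicing factor gene, had a change of 0.10 and the peak within SERPINF1 one of 0.47 (adjusted p 0.693 and 0.0997). MIR146A had no peak in its window. The nearest one (chr5:160421368-160422449) was 62903 bp away, just outside the limit, with means of 78.4 ± 17.4 and 83.3 ± 9.81 (0.05, adjusted p 0.800). The window of MIR146A was drawn from the hairpin and not from its host MIR3142HG. This peak lies 45552 bp from the promoter window of MIR3142HG, so a 50 kb window around the host would have held it.

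The region of VMP1 and MIR21 held the most peaks, 9, of which 2 were gained and 1 was lost. The strongest loss (chr17:59811972-59812752) lies within VMP1, 28.9 kb before the MIR21 hairpin. Its normalised count was 32.5, 45.4 and 51.8 at the lowest, median and highest control library and 8.56, 10.9 and 16.6 in knockdown, with no overlap. It changed by -1.88 ± 0.24 on the log2 scale (adjusted p 1.26e-13), with -1.91 in batch 1 and -1.83 in batch 2, called in both. Its share of the reads of the 9 peaks was 7.34% to 11.9% in control and 2.10% to 3.49% in knockdown.

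The larger gain of the region was further upstream within VMP1, 89.7 kb before the hairpin (chr17:59751239-59751867). It was the weakest peak of the 30 in control, per length as well, with 1.73 at the lowest, 7.72 at the median and 8.38 at the highest library, or 1 to 9 reads. In knockdown it had 15.1, 17.8 and 24.2, or 16 to 33 reads. Every knockdown library was above every control library, and the mean rose from 6.28 ± 2.79 to 18.9 ± 3.53 (1.47 ± 0.34, adjusted p 0.000119). The call was made in batch 2 (1.72, adjusted p 0.00483), and batch 1 gave 1.21 with an adjusted p of 0.247. Its share of the reads of the locus was 0.386% to 2.02% in control and 3.70% to 5.31% in knockdown.

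The other gain (chr17:59848558-59849353) lies 7.65 kb beyond MIR21 and past the end of VMP1. Its control range was 22.3 to 37.2 (median 30.1), its knockdown range 34.4 to 51.1 (median 37.8), and the mean rose from 29.6 ± 5.82 to 40.8 ± 7.42 (0.46 ± 0.20) with an adjusted p of 0.0499. The call was lost without any 1 of 9 libraries and in neither batch alone was it made, so it is uncertain.

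No call was made at the peak nearest the MIR21 hairpin or at the VMP1 promoter. The peak nearest the hairpin (chr17:59837463-59838684), 2582 bp before it, ranged from 34.6 to 51.6 in control (median 44.7) and from 33.8 to 64.8 in knockdown (median 48.3; 0.10 ± 0.18, adjusted p 0.714). The peak over the promoter that VMP1 shares with PTRH2 (chr17:59707183-59708264) had means of 40.5 ± 8.62 and 32.3 ± 4.93 (-0.34 ± 0.19, adjusted p 0.142). The highest peak of all 30 per length (chr17:59786095-59787541), within VMP1, had 132 and 147 normalised counts per kb and means of 191 ± 26.4 and 213 ± 15.3 (0.13 ± 0.09, adjusted p 0.285). The weaker peak next to it, 56.0 kb before the hairpin, had 15.0 ± 5.44 and 21.8 ± 1.99 (0.59 ± 0.27, adjusted p 0.0602). Relative to the median log2 fold change of -0.12 over the surrounding 10 Mb, these last 2 peaks were called gained. The remaining 2 peaks, 1 of them within TUBD1, had log2 fold changes of 0.03 and 0.49 and were not called.

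**Figure D3:**
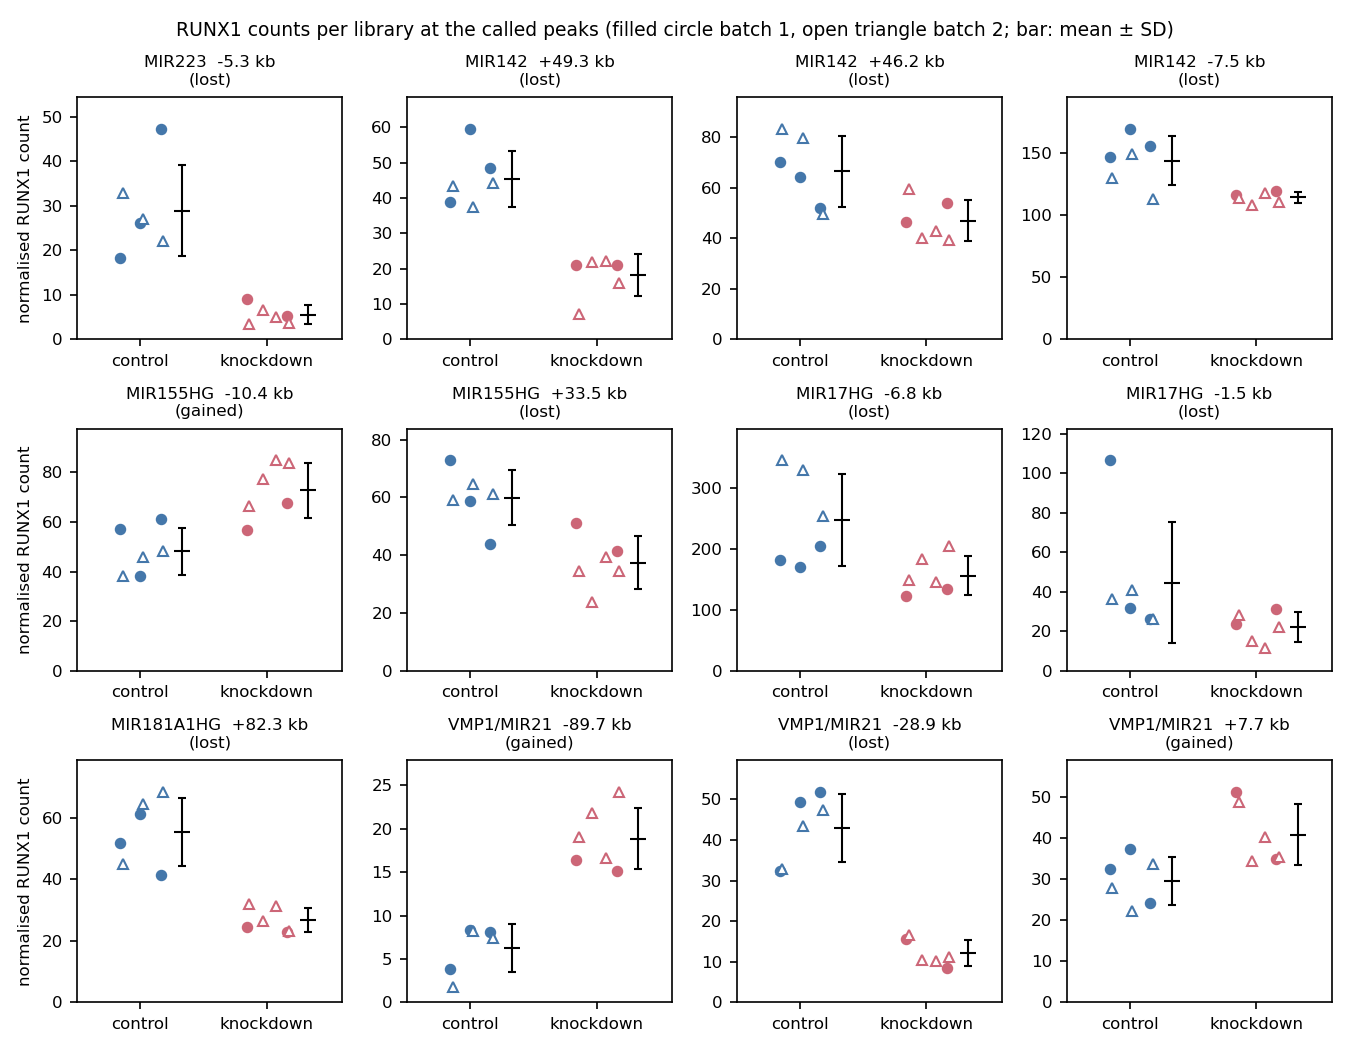
Normalised RUNX1 count (vertical axis, from 0) in each library of the 12 called peaks, with control libraries in blue and knockdown libraries in red, batch 1 as filled circles, batch 2 as open triangles and the mean ± SD beside them. At MIR223 the knockdown libraries stayed at or below 9.13 and the control libraries at or above 18.2, whereas the MIR17HG peak at -1.5 kb shows control replicate 1 at 107 above the other controls.

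Read batch by batch, 4 of the 30 peaks were called in batch 1 (0 gained and 4 lost), against 12% of all peaks, and 10 in batch 2 (2 gained and 8 lost), against 25.8%. The 4 peaks called in batch 1, the strongest losses in the windows of MIR223, MIR142, MIR181A1HG and VMP1, were also called in batch 2. All 12 called peaks had the same sign in both batches, as did 99.9% of called peaks among all peaks, and so did 24 of the 30, or 80%, against 79.98% of all peaks. The pooled fit uses the libraries of both batches, so its calls are not independent of this count. In both batches, every knockdown library was below every control library at 6 peaks, against 13.9% of all peaks, and above at 1 peak, against 14.4%. No difference in effect between the batches was detected by the product term of shRNA and batch: DESeq2 and edgeR each called 0, with 0 of 30 at an unadjusted p under 0.05.

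**Figure D4:**
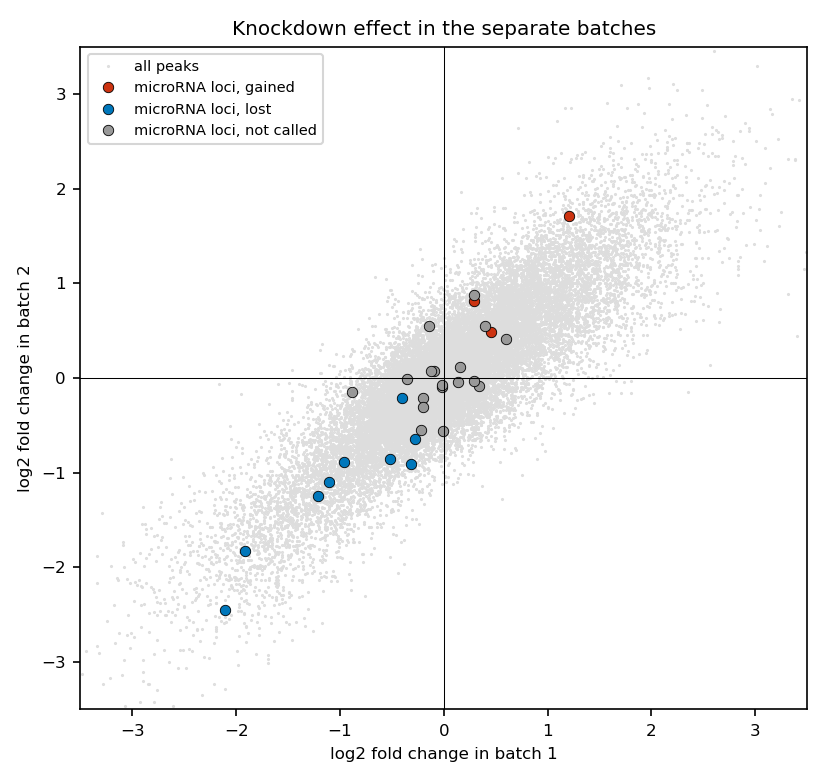
Log2 fold change between knockdown and control in batch 1 (horizontal axis) and batch 2 (vertical axis) for all 26642 peaks (gray) and the 30 peaks of the microRNA loci (lost in blue, gained in red, not called in dark gray). The called peaks lie at the lower left and upper right, from -2.10 and -2.45 at MIR223 to 1.21 and 1.72 within VMP1.

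The number of peaks around these genes varied widely among microRNA genes at large. Of 1913 microRNA genes in the RefSeq table, 37.2% had 0 peaks within 50 kb and the median was 1. The 8 peaks of MIR142 were reached by 1.67% of them, the 5 within 50 kb of MIR21 by 12.2% and the 4 of MIR223 by 18.8%.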

How the data were processed

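RUNX1 ChIP-seq of THP-1 cells was deposited as raw counts of reads per merged peak in 12 libraries, and 8 IgG libraries were not analysed here. Per the study's methods and the submitters' processing notes, the authors aligned reads with bowtie2, removed duplicates, called peaks with macs2 per condition and batch, kept peaks reproducible between batches, merged the conditions and made the counts with featureCounts. Versions of the aligner, peak caller and read counter are not given in the sources used here, and the study's DESeq2 was an older release than the one used here. The compared libraries themselves defined the peaks. The deposited peak width, an other column, was used for levels per kb only.

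The sources name a mouse and a human genome build. Of the peaks, 24.4% lay within 1 kb of either end of some coding gene in RefSeq GRCh38.p14, against 5.48% to 7.05% when moved by 100 kb or 1000 kb to either side, and the coordinates were taken as GRCh38. No genome sequence was used, so the sequence of a peak is not shown. Exons and introns were not assigned.

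Differential binding was tested with DESeq2 1.42.0 (R 4.3.3), as in the study's methods, on all 26642 peaks with batch as covariate and median-of-ratios size factors, within each batch, and with a product of shRNA and batch. The alternatives were the quasi-likelihood test of edgeR 4.0.16, other models, scalings, filters and windows, and leaving out each library. Normalised counts are counts divided by size factors, and intervals are 95% Wald intervals. Chi-square over degrees of freedom was 1.29 to 2.24 between libraries of a group (peaks with at least 20 reads), and none was a duplicate. For each gene, the nearest peak and every called peak are described singly, and other peaks by means or ranges. The members, lists and rules were chosen with earlier results of these data known.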

Additional observations from a re-analysis of the deposited data

Results flagged for a closer look

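In 4 of 60 groups of 6 libraries, 1 library stood apart from the other 5 by Dixon's criterion, where chance gives about 3 (1 in 20). All were control libraries. Control replicate 1 had 106.6 normalised counts at the peak within MIR17HG (chr13:91348242-91349983), against 26.3 to 41.0 in the other controls, and this library widens the control mean of a called peak. The same library had 113.1 at the peak of SUPT4H1 and RNF43 near MIR142 (chr17:58351758-58353375), against 65.1 to 78.6. Control replicate 4 had 50.3 at the peak nearest MIR223 (chrX:66015079-66015977), against 29.9 to 34.4, and 59.0 at the peak in PRPF8 near MIR22HG (chr17:1683878-1685271), against 39.9 to 43.8. This library had the fewest reads in peaks (630247), and these values rest on 29 and 34 reads. The last 3 peaks were not called.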

How the results depend on the processing

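The 9 losses and 3 gains stayed within 1.5 times of these counts under edgeR, TMM or total-read size factors, no batch term, no independent filtering and a window of 100 kb. With fold changes over 2 there were 4 losses and 1 gain, with at least 10 counts in every library 5 losses, within 10 kb of a gene 5 losses, and with fold changes centred on the median of the surrounding 10 Mb 5 gains. Leaving out 1 library gave 2 to 4 gains and 6 to 9 losses. In batch 1, edgeR called 7 peaks in place of 4 and leaving out 1 library 0 to 3 (0 without knockdown replicate 2, 1 without knockdown replicate 1 or control replicate 3, 2 without control replicate 2). Without either knockdown replicate, batch 1 keeps 1 knockdown library, assumed to vary like the 3 controls, so those 2 counts say little about stability. In batch 2, leaving out 1 library gave 8 to 10. Same-numbered libraries of the groups did not deviate together (correlations from -0.06 to 0.17, 1 of 6 over 0.1, and 2 of 6 best with their own number). Number 3 lies in batch 1 for control and in batch 2 for knockdown, so the number pairs libraries across batches there. With the number as a replicate block there were 2 gains and 8 losses, and the peak within MIR17HG (adjusted p 0.0587) and the one beyond MIR21 (0.121) were not called. These 2 calls were each lost under 11 of 20 alternatives, the MIR142 losses at chr17:58337730-58339733 under 5 and at chr17:58284319-58285779 under 3. The near-zero change nearest MIR22HG (chr17:1722821-1723596) turned positive with total reads (0.0010), without batch (0.0051), with the replicate block (0.016), with the count filter (0.051) and without any 1 of 4 libraries (-0.089 to 0.038 over all 12 left out in turn), and that nearest MIR21 (chr17:59837463-59838684) turned negative without knockdown replicate 1 (-0.073 to 0.19 over all 12). The cause was not tested. At 25.5 to 57.5 reads per peak, depth limits what single peaks can show.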

Other observations

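Around 24 other microRNA genes or hosts of blood cells, 21 of which had a peak within 50 kb, 17 of 75 peaks were gained (22.7%) and 13 were lost (17.3%), near the 21.3% gained and 20.7% lost of all peaks, with a median log2 fold change of -0.01 (-0.02 over all peaks). The peaks named were picked for their size after the values were seen. The strongest gain was 4048 bp from MIR191 (chr3:49024757-49026411), where the normalised count rose from 42.0 ± 4.51 to 175 ± 20.1 (SD over 6 libraries a group), a change of 2.09 ± 0.14 on the log2 scale (adjusted p 2.0e-48, DESeq2). A peak near MIR424 and MIR503HG rose from 18.4 ± 6.91 to 51.4 ± 6.17 (1.40, adjusted p 7.58e-10), and a peak within MIR29B2CHG from 13.4 ± 3.55 to 36.8 ± 4.44 (1.42, adjusted p 6.96e-08). The single peak near MIR193BHG fell from 47.7 ± 6.72 to 24.0 ± 4.91 (-1.05, adjusted p 4.93e-07), and 1 of the 2 peaks near MIR212 and MIR132 fell from 17.4 ± 4.18 to 6.55 ± 2.45 (-1.44, adjusted p 0.000137).

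Around 17 genes of microRNA processing and function, 15 of which had a peak, 15 of 58 peaks were gained (25.9%) and 7 were lost (12.1%), against 21.3% and 20.7% of all peaks, with a median log2 fold change of 0.15. No test was made of this list against other peaks. AGO2, the Argonaute with slicing activity, had 4 gained peaks of 10 and TNRC6B, a silencing partner of Argonaute, 4 of 11, against 21.3% of all peaks. Counts of this list were not centred on the surrounding 10 Mb, where the median log2 fold change ranged from -0.59 to 1.42 over all peaks. A shift of the wider region was therefore not separated from changes at these genes. AGO1 and AGO3 had 0 gained peaks of 2 each, and AGO4 and TNRC6A 0 of 3 each. These are too few peaks to set the genes apart from AGO2 or TNRC6B. AGO3, AGO4 and TNRC6A had 1 lost peak each. TNRC6C had 1 gained peak of 7. DIS3L2 had 3 gained peaks and 1 lost peak of 6. XPO5, which exports precursor hairpins from the nucleus, had 2 lost peaks of 3. AGO2, TNRC6B, DIS3L2 and XPO5 were picked for their counts after the values were seen. The strongest AGO2 gain, within the gene, rose from 7.12 ± 2.28 to 22.3 ± 5.94 (1.67 ± 0.34, adjusted p 5.99e-06), and the strongest XPO5 loss, 4313 bp from the gene, fell from 71.6 ± 15.4 to 41.3 ± 6.86 (-0.80 ± 0.17, adjusted p 9.1e-06).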
